A study of Mus musculus with 17 samples.

Results

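The enzymes and transporters that carry glucose to pyruvate, lactate and acetyl-CoA were followed through RNA-seq of 17 mouse samples from 6 cell types. The set holds 34 genes, found by gene symbol among the 23891 symbols of the tables: glucose transporters, the glycolytic enzymes with their isozymes, the lactate dehydrogenases, the pyruvate dehydrogenase E1 subunits and their kinases, and the monocarboxylate transporters. A gene was represented by the RefSeq transcript with the highest mean FPKM (fragments per length of transcript, scaled to the mapped fragments of the library) over the 17 samples. Of the 34 genes, 33 reached 1 FPKM in at least 1 sample, and the exception was Pgk2, a phosphoglycerate kinase of meiotic and later germ cells, which stayed at or below 0.0554 FPKM.

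Glycolysis splits glucose into pyruvate in the cytosol, and lactate dehydrogenase interconverts pyruvate and lactate. Pyruvate that enters the mitochondrion is turned into acetyl-CoA by the pyruvate dehydrogenase complex, which the Pdk kinases switch off by phosphorylation. Most steps have several isozymes encoded by separate genes, and tissues differ in the isozyme they use. Mouse pluripotent cells are known for strong glycolysis even with oxygen present, and spermatogonia for growth on glycolysis, with lactate becoming a main fuel of later germ cells.

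Spermatogonial stem and progenitor cells (SSCs) are cultured germline cells that can convert spontaneously to MASCs, multipotent stem cells of adult spermatogonial origin that resemble embryonic stem cells (ESCs). There were 4 SSC lines (Oct4-GFP for SSC 1 and SSC 2, C57Bl/6J for SSC 3, 129mix for SSC 4), 6 MASC lines (Oct4-GFP for MASC 1 and 2, 129mix for MASC 3 and 4, Gt(ROSA26)Sor-lacZ for MASC 5 and 6) and 2 ESC lines (Oct4-GFP and 129mix). The remaining samples were 2 lines of induced pluripotent stem (iPS) cells, 2 cultures of haematopoietic stem and progenitor cells (HSCs) and 1 culture of mouse embryonic fibroblasts (MEFs). The iPS lines were 129mix and came from E13.5 embryonic fibroblasts that carry a cassette of 4 reprogramming factors, induced with doxycycline at 2 µg/ml. The HSCs were lineage-depleted C57Bl/6J bone marrow cells expanded on human endothelial feeder cells that carry the adenoviral E4ORF1 gene, and the MEFs were 129mix, also from E13.5 embryos. Nothing in the labels says that lines of a cell type came from separate animals, so p-values measure the spread between these lines. The paper states that the MASC and ESC lines were subcloned, and the MASC lines share their strains in pairs. Every test counts each line as independent, so lines of a common origin would make the p-values too small.

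The media differed with the cell type. SSCs grew in StemPro-34 with 6 mg/ml of added glucose, 30 µg/ml of pyruvic acid, 1 µg/ml of lactic acid and 1% serum. MASCs, ESCs and iPS cells grew in KnockOut DMEM with 10% serum replacement and LIF. HSCs were kept in serum-free X-Vivo, and MEFs in DMEM with 4500 mg/liter of glucose and 10% serum. SSC, MASC, ESC and iPS lines were grown on fibroblast feeders. Medium and cell type therefore cannot be told apart in any comparison with SSCs or HSCs. In bulk RNA, fewer cells of a kind and less RNA per cell also cannot be told apart.

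Between 13532 and 16272 transcripts per sample reached 1 FPKM, and 1 FPKM corresponded to a coverage of 1.26 to 3.23 reads per base. Summed markers matched the labels. The summed FPKM of 12 SSC markers was 865 to 1295 in SSC lines and at most 298 elsewhere. That of 10 pluripotency markers was 3441 to 6714 in MASC, ESC and iPS lines and at most 171 elsewhere. Single SSC markers could differ: Itga6 was at 6.08 to 20.3 FPKM in SSCs and 17.8 to 34.3 FPKM in MASCs. Etv5 was at 11.4 to 123 FPKM and 81.1 to 128 FPKM, and Gfra1 was highest in MEFs (35.5 FPKM). The other SSC markers were highest in an SSC line. The 10 haematopoietic markers summed to 1990 and 2332 in HSCs and to at most 87.6 elsewhere, but the most abundant transcripts of the HSC cultures were the mast cell protease genes Tpsb2 and Mcpt4. The 11 fibroblast markers, of feeder cells or MEFs, summed to 7288 FPKM in MEFs, 1228 in MASC 1, 1031 in SSC 3, 540 in HSC 2, 450 in SSC 1, 443 in ESC 1 and 2.51 to 165 in the other libraries. Counts of called genes, or the differences named beside them, are also given without these 5 libraries outside MEFs. Of 12 meiotic and postmeiotic markers, 10 stayed under 1 FPKM in every SSC line, and likewise in every MASC, ESC and iPS line. The exceptions were the meiotic genes Sycp1 and Sycp3, at 15.5 to 59.8 and 5.63 to 75.2 FPKM in SSCs. In MASCs they were at 1.98 to 6.03 and 6.53 to 14.5 FPKM.

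Among hexokinases and pyruvate dehydrogenase kinases, the isozyme with the highest FPKM in every SSC line was not the one with the highest FPKM in every MASC line, so the promoters of these 4 genes are shown first. Each line gives the 250 bases before the RefSeq start of the gene (RefSeq promoter sequences of GRCm38.p6, located by exact match on NCBIM37, the Ensembl name of mm9), 5′ to 3′ on the gene's strand. Capitals mark ACGTG and GCGTG on either strand (CACGT and CACGC when read from the other strand), the core of the hypoxia response element bound by HIF factors.
Hk1, chr10:61803170-61803419, minus strand: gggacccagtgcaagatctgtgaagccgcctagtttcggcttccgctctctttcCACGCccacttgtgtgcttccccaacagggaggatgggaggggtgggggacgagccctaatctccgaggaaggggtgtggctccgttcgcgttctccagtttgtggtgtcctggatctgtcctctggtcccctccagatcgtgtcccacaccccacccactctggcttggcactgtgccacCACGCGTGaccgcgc
Hk2, chr6:82724449-82724698, minus strand: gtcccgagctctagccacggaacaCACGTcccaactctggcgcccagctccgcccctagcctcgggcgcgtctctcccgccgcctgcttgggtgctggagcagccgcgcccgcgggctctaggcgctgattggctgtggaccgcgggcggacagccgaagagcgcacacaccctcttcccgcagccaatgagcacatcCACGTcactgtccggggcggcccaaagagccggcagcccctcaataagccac
Pdk1, chr2:71711031-71711280, plus strand: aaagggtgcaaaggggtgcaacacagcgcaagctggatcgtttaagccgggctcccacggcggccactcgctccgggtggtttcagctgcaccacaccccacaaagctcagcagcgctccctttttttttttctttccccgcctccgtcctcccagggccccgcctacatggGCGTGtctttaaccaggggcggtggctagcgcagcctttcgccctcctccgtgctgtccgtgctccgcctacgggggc
Pdk3, chrX:91077490-91077739, minus strand: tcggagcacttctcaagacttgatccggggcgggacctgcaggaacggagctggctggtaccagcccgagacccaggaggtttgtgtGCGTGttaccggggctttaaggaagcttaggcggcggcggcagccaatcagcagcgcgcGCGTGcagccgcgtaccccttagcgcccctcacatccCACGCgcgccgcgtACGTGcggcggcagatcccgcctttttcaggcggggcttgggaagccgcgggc
The Hk1, Hk2 and Pdk1 stretches end where the transcript of the tables begins, and the Pdk3 stretch ends 55 bases before it. Hk1 held 3 matches, 2 of which overlap, Hk2 held 2, Pdk1 held 1 and Pdk3 held 4. None of the 4 stretches held CACGTG, the E-box, which contains ACGTG. Over windows of 300 bases that add the first 50 transcribed bases, 27 of the 33 members with a window (81.8%) had at least 1 hypoxia response element core, against 43.8% of all 32851 RefSeq windows. CACGTG was present in 5 of the 33 windows and in 7.15% of all windows. Both cores contain CG, the 4 stretches were 62.8% to 69.6% G and C, and the windows compared were not matched for base composition. Members counted 1 window each, whereas all windows can include several per gene. Such matches are letters in a sequence, and no binding was measured.

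In MASCs against SSCs, 11 of the 34 genes were higher and 5 were lower, with 18 not called (limma on log2(FPKM + 1), adjusted p under 0.05 over all transcripts and a log2 difference of at least 1). Higher were Slc2a3, Hk2, Pfkp, Aldoa, Gapdh, Pgk1, Eno1, Pkm, Ldha, Ldhb and Pdha1, and lower were Hk1, Pfkm, Aldoc, Pdk2 and Pdk3. Over all 32661 transcripts, 6.04% were called higher and 9.6% lower. Many of these are near 0, and a filter kept transcripts with 1 FPKM in at least 2 lines. Then 13 of 33 members were higher and 6 lower, beside 2106 and 3307 of 18757 transcripts. The lower members were thus close to the share of all transcripts kept. With median-of-ratios scaling between samples, whose factors differ by 0.12 (log2) between the groups, the split among the members was 12 higher and 3 lower. Over all 32661 transcripts that split was 2232 and 2669. The median difference of the members was 0.72, against −0.0048 for all transcripts. It was −0.10 for the 15811 transcripts with a mean log2(FPKM + 1) of at least 1 over the 17 samples. All 16 called genes had the same sign within the Oct4-GFP lines (2 against 2) and within the 129mix lines (2 against 1). Without SSC 1, SSC 3 and MASC 1 (and ESC 1), the libraries with most fibroblast markers, 11 genes were higher and 2 were lower. Over all 32661 transcripts, 1806 were then higher and 3105 lower. The set of genes changed: Slc2a3, Hk1, Pfkm and Aldoc lost their calls, and Pdk1 gained one as higher (difference 1.04). Among the genes that stayed called, the differences were then 2.76 for Hk2, 1.79 for Pfkp, 2.79 for Aldoa, 1.90 for Gapdh, 2.83 for Eno1, 1.83 for Pkm, 2.28 for Ldha, 1.45 for Pdha1, −1.58 for Pdk2 and −1.43 for Pdk3. With strain as a block, Slc2a3, Hk1, Pfkm and Aldoc lost their calls (adjusted p = 0.066 to 0.14, limma). Tpi1 gained one as higher (difference 1.44, adjusted p = 0.041, limma). That left 11 higher and 2 lower, beside 1923 and 2969 of all transcripts.

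**Figure D1:**
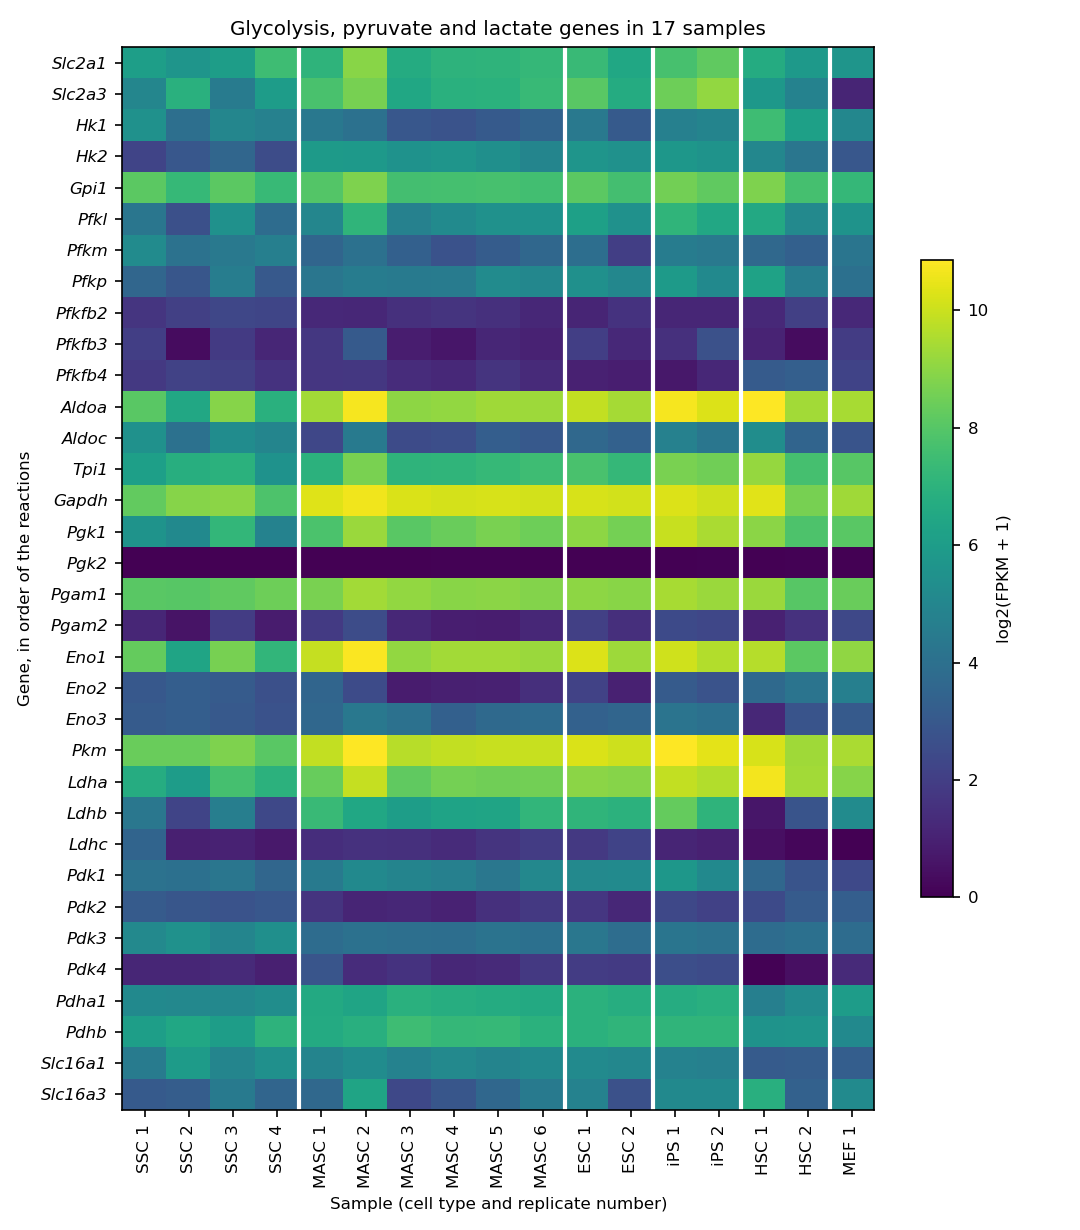
Heat map of log2(FPKM + 1) for the 34 genes (rows, in order of the reactions) in the 17 samples (columns, white lines between cell types). Aldoa, Gapdh, Eno1 and Pkm have the highest group means in MASC, ESC and iPS lines, Pgk2 is dark in every sample, and MASC 2 stands out from the other MASC lines for several genes.

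Glucose enters through Slc2a1 and Slc2a3, the facilitative transporters GLUT1 and GLUT3. Slc2a1 was at 67.7, 50.2, 64.5 and 180 FPKM in SSC 1 to SSC 4 and at 103, 133 and 491 FPKM (lowest, median, highest) in MASCs. The groups overlapped, and the log2 difference of 1.01 ± 0.49 (SE) did not pass (adjusted p = 0.16). Slc2a3 was at 30.9, 118, 21.9 and 62.9 FPKM in SSCs and at 88.4, 140 and 402 FPKM in MASCs, a log2 difference of 1.74 ± 0.57 (adjusted p = 0.043, limma). SSC 2 lay inside the MASC range, and the call was lost when any 1 of 8 of the 10 libraries was left out (SSC 1, 3 or 4, MASC 1, 2, 4, 5 or 6; adjusted p up to 0.12). Without the libraries high in fibroblast markers the Slc2a3 difference was 0.81 (adjusted p = 0.45). Slc2a3 exceeded Slc2a1 in both ESC lines (274 against 161 and 102 against 88.3 FPKM) and in both iPS lines (352 against 206 and 554 against 296). It was the lower of the pair in both HSC cultures (54.5 against 103 and 27.0 against 56.9) and in MEFs (1.21 against 50.1).

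The hexokinases trap glucose as glucose 6-phosphate. Hk2 (chr6:82675021-82724448, minus strand, mm9) was at 3.66, 6.70, 11.2 and 4.71 FPKM in the SSC lines and at 29.8, 47.9 and 59.4 FPKM (lowest, median, highest) in MASCs. Every MASC line was above every SSC line, and the log2 difference was 2.74 ± 0.28, a 6.67-fold higher level on that scale (adjusted p = 6.3e-05, limma). Hk1 (chr10:61731603-61803169, minus strand) was at 43.7, 14.6, 30.9 and 26.7 FPKM in SSCs and at 5.79, 8.65 and 19.4 FPKM in MASCs. Its difference of −1.37 ± 0.42 passed (adjusted p = 0.035), but SSC 2 lay within the MASC range. The Hk1 call was lost without any 1 of SSC 1, 3 or 4 or MASC 3, 4, 5 or 6 (adjusted p up to 0.099) and without the libraries high in fibroblast markers (difference −1.12, adjusted p = 0.12).

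The order of the hexokinases differed between the groups. Hk1 made up 79.8% of the summed Hk1 and Hk2 FPKM in SSCs and 18.3% in MASCs. Hk2 exceeded Hk1 in all 10 MASC, ESC and iPS lines, and Hk1 exceeded Hk2 in the other 7 samples. The log2 ratio of Hk2 to Hk1 was −1.99 ± 1.00 (SD, n = 4) in SSCs and 2.12 ± 0.59 (SD, n = 6) in MASCs, a difference of 4.10 with no overlap (exact permutation test, two-sided p = 0.0095). That p is the smallest these 10 lines can give, it is not adjusted, and 14 isozyme pairs were tested. The difference was 3.81 within Oct4-GFP, 5.03 within 129mix and 3.87 without the libraries high in fibroblast markers. HSCs had the highest Hk1 of all samples, 177 and 71.9 FPKM, beside 32.0 and 18.0 FPKM of Hk2. MEFs had 32.0 FPKM of Hk1 and 6.69 FPKM of Hk2.

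**Figure D2:**
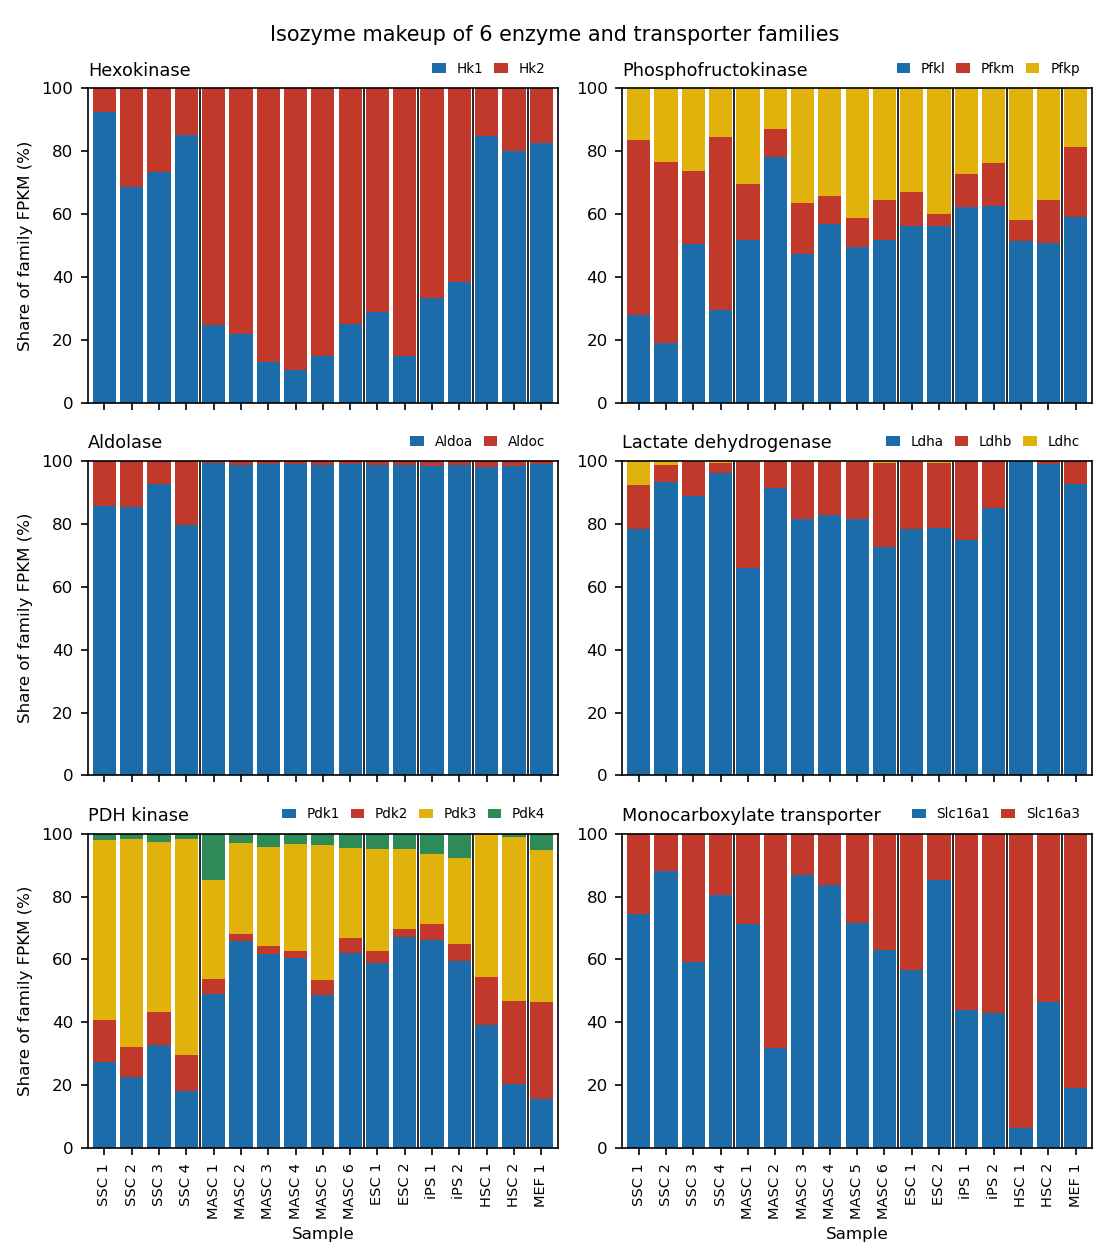
Share of each isozyme in the summed FPKM of its family (stacked bars, vertical axis from 0 to 100%), for 6 families in the 17 samples. The Hk2 share is larger than that of Hk1 only in MASC, ESC and iPS lines, Pfkm and Aldoc take their largest shares in SSCs, and the Pdk1 share passes that of Pdk3 in the 10 pluripotent lines.

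Gpi1, which converts glucose 6-phosphate to fructose 6-phosphate, ran at 156 to 283 FPKM in SSCs and 191 to 436 FPKM in MASCs, and its difference of 0.16 ± 0.28 did not pass (adjusted p = 0.76). The next step, phosphofructokinase, commits the sugar to glycolysis. Its muscle form Pfkm was at 36.8, 16.0, 20.3 and 25.1 FPKM in SSCs and at 5.73, 9.97 and 15.6 FPKM in MASCs, without overlap, a difference of −1.19 ± 0.39 (adjusted p = 0.043, limma). The call was lost without any 1 of 8 libraries (SSC 1, 3 or 4, MASC 1, 3, 4, 5 or 6; adjusted p up to 0.12). It also rests on the transcript NM_001163487, which held 91.9% of Pfkm FPKM in SSCs and 52.2% in MASCs. NM_021514 held 1.76% and 25.6%, and NM_001163488 held 6.36% and 22.2%. Summed over all Pfkm transcripts, the difference was −0.42 (adjusted p = 0.27), and the call was lost.

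The liver form Pfkl was at 18.4, 5.29, 44.2 and 13.4 FPKM in SSCs and at 26.7, 40.2 and 135 FPKM in MASCs, and its difference of 1.46 ± 0.58 did not pass (adjusted p = 0.089). The platelet form Pfkp was at 10.9, 6.56, 23.0 and 7.13 FPKM in SSCs and at 18.2, 22.1 and 37.1 FPKM in MASCs, with overlap through SSC 3. Its difference of 1.15 ± 0.33 passed (adjusted p = 0.026), and the call was lost without SSC 1, SSC 2, SSC 4, MASC 5 or MASC 6 (adjusted p up to 0.078). Pfkm was the most abundant of the 3 forms in 3 of 4 SSC lines, and Pfkl was in SSC 3 and in all 13 samples of the other cell types. The log2 ratio of Pfkm to Pfkl fell by 2.65 from SSCs to MASCs without overlap (exact permutation test, p = 0.0095). With transcripts summed per gene, the difference was −1.88 and the groups overlapped (exact permutation test, p = 0.038). The ratio of Pfkp to Pfkl differed by −0.31 (exact permutation test, p = 0.62). SSC 3, where Pfkl was highest among the SSC lines, also had the most fibroblast markers, and MEFs had 47.1 FPKM of Pfkl; the part of feeder cells in this was not tested. Without the libraries high in fibroblast markers, the Pfkm to Pfkl difference was −3.38.

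The bifunctional enzymes Pfkfb2, Pfkfb3 and Pfkfb4 set the level of fructose 2,6-bisphosphate, the activator of phosphofructokinase, and were scarce. Pfkfb2 was at 2.16, 3.22, 3.93 and 3.89 FPKM in SSCs and at 1.31 to 2.14 FPKM in MASCs, and its difference of −0.69 ± 0.15 passed on p (adjusted p = 0.0072, limma) but was below the minimum size. Pfkfb3 was at 3.0, 0.298, 2.62 and 1.23 FPKM in SSCs and at 0.587 to 7.54 FPKM in MASCs, with MASC 2 the highest. Pfkfb4 was at 2.54, 3.37, 3.11 and 2.05 FPKM in SSCs and at 1.39 to 2.37 FPKM in MASCs. By the transcripts used, no form led in every line of SSCs or MASCs, whereas Pfkfb4 led in both HSC cultures at 7.61 and 8.82 FPKM. The Pfkfb3 transcript used held only 9.15% and 2.99% of Pfkfb3 FPKM in those cultures. With all its transcripts summed, Pfkfb3 exceeded Pfkfb4 in both. HSCs were higher in Pfkfb4 than SSCs by 1.30 ± 0.19 (adjusted p = 0.00018) and than MASCs by 1.70 ± 0.17 (adjusted p = 1.5e-05, limma).

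Aldolase cleaves fructose 1,6-bisphosphate. The common form Aldoa was at 267, 89.9, 467 and 116 FPKM in SSCs and at 520, 623 and 1683 FPKM in MASCs, all above the SSC lines, a difference of 1.88 ± 0.50 (adjusted p = 0.016). The call was lost without SSC 4 (adjusted p = 0.051). The brain form Aldoc went the other way, from 44.2, 15.5, 37.5 and 30.0 FPKM in SSCs to 3.99, 6.10 and 20.8 FPKM in MASCs, a difference of −1.92 ± 0.43 (adjusted p = 0.0077). MASC 2 was above SSC 2. Aldoc held with each library left out in turn but not without the libraries high in fibroblast markers (difference −1.34, adjusted p = 0.18). Aldoc made up 14.2% of aldolase FPKM in SSCs, 1.01% in MASCs and 0.865% in MEFs, and the log2 ratio of Aldoc to Aldoa fell by 3.80 without overlap (exact permutation test, p = 0.0095).

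Tpi1, which interconverts the triose phosphates, was at 45.2 to 121 FPKM in SSCs and 125 to 412 FPKM in MASCs. The groups did not overlap, but the difference of 1.09 ± 0.39 did not pass (adjusted p = 0.059). Tpi1 was called as higher with the filter on low values, with median-of-ratios scaling or with strain as a block. Gapdh, which oxidises glyceraldehyde 3-phosphate and is often used as a reference gene, was at 308, 476, 509 and 229 FPKM in SSCs and at 1111, 1210 and 1563 FPKM in MASCs. The difference of 1.78 ± 0.21 was a 3.45-fold higher level in MASCs (adjusted p = 0.00019, limma). A second transcript, NM_001289726, held 42.9% of Gapdh FPKM in SSCs and 45.9% in MASCs, and with both summed the difference was 1.86. Gapdh has many processed pseudogenes, and reads that map to several places were left out of the values.

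Pgk1 makes the first ATP of the pathway. Its FPKM was 47.4, 35.1, 146 and 27.5 in SSCs and 219, 345 and 605 (lowest, median, highest) in MASCs, without overlap. The difference of 2.74 ± 0.45, 6.68-fold, passed in limma (adjusted p = 0.0013) and rose to 3.57 without the libraries high in fibroblast markers. SSC 3, with most fibroblast markers of the SSC lines, had the highest Pgk1 of that group, and MEFs had 274 FPKM. Pgam1 (phosphoglycerate mutase) was at 264 to 355 FPKM in SSCs and 406 to 654 FPKM in MASCs, a difference of 0.77 ± 0.13 (adjusted p = 0.0014) below the minimum size. Its muscle relative Pgam2 ranged from 0.502 to 4.82 FPKM over all samples.

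Enolase precedes the last step. Eno1, the common form, was at 318, 79.5, 397 and 141 FPKM in SSCs and at 544, 657 and 1796 FPKM in MASCs, a difference of 2.02 ± 0.51 without overlap (adjusted p = 0.014, limma). The nearly identical copy Eno1b (41.1 to 188 FPKM in SSCs, 295 to 1092 FPKM in MASCs) differed by 2.19. How reads shared by the 2 genes were counted was not tested. The neuronal form Eno2 was at 6.89, 8.63, 7.62 and 5.32 FPKM in SSCs and at 0.788, 1.36 and 10.5 FPKM in MASCs, and its difference of −1.30 ± 0.54 did not pass (adjusted p = 0.10). MASC 1 was the one MASC line above the SSC range, and it also had the most fibroblast markers outside MEFs, where Eno2 was at 24.9 FPKM; whether feeder cells gave this Eno2 was not tested. The muscle form Eno3 was at 7.63, 8.56, 7.27 and 5.72 FPKM in SSCs and at 9.06, 12.6 and 19.4 FPKM in MASCs (difference 0.78 ± 0.18, adjusted p = 0.010, below the minimum size). From SSCs to MASCs, the Eno2 to Eno1 log2 ratio fell by 3.32 without overlap (exact permutation test, p = 0.0095).

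Pkm, pyruvate kinase, makes pyruvate and ATP and was represented by the transcript NM_011099. Its FPKM was 332, 333, 438 and 270 in SSCs and 828, 951 and 1864 in MASCs, without overlap, a difference of 1.62 ± 0.22 (adjusted p = 0.00046, limma). A second transcript of equal length, NM_001253883, held 29.5% of Pkm FPKM in SSCs, 6.92% in MASCs, 8.14% in ESCs, 12.9% in HSCs and 19.9% in MEFs. The share was uneven among SSC lines, at 30.2%, 13.1%, 42.6% and 17.4% in SSC 1 to SSC 4, and reached 11.02% in MASC 1. Without the libraries high in fibroblast markers it was 15.1% in SSCs and 6.21% in MASCs. The log2 ratio of NM_001253883 to NM_011099 was lower in MASCs than in SSCs (difference −2.12, exact permutation test, two-sided p = 0.0095), and the difference was −1.45 without those libraries. Cufflinks splits reads between overlapping transcripts by estimation, and the error of that split was not tested.

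**Figure D3:**
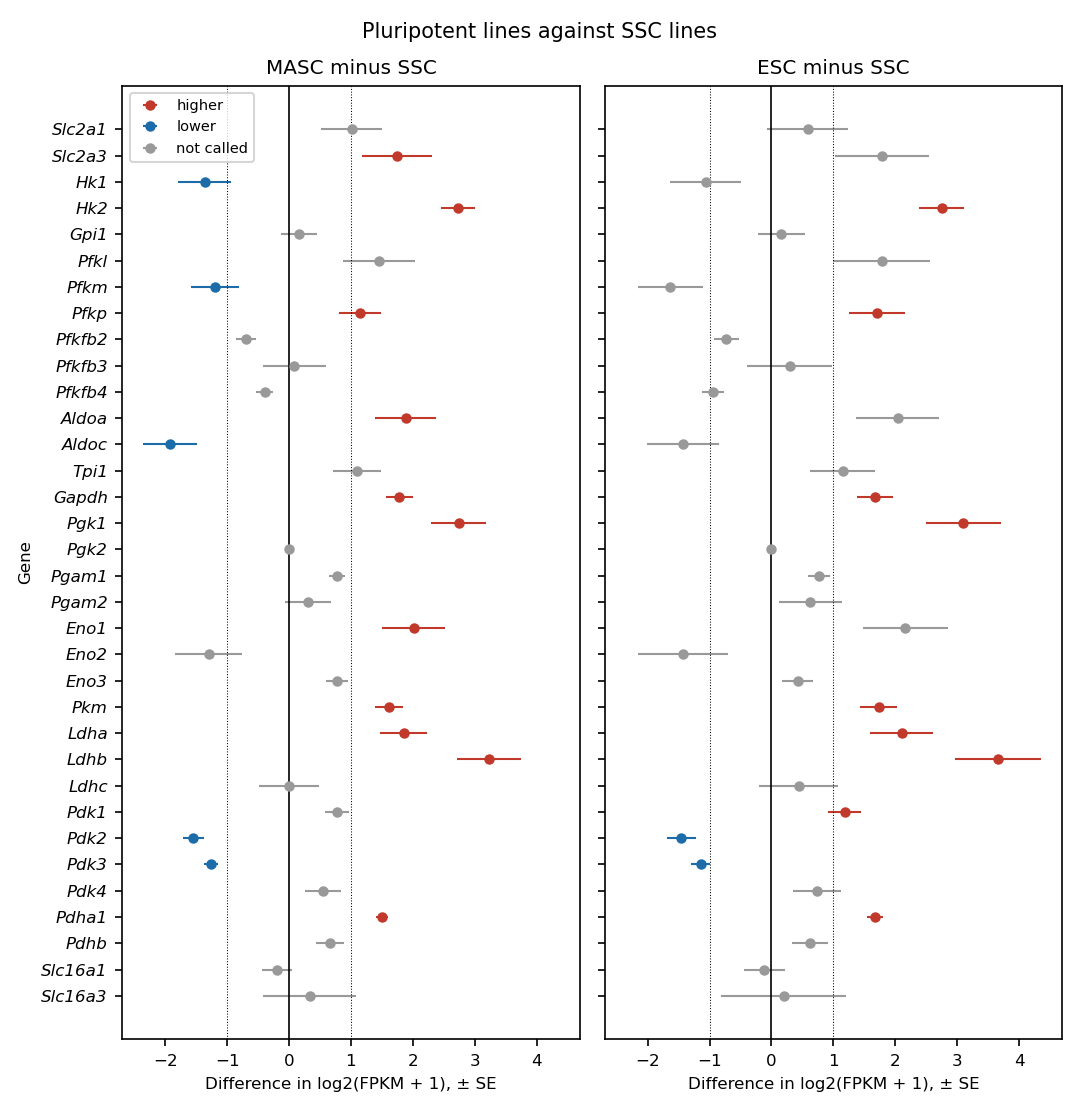
Differences in log2(FPKM + 1) from the SSC lines, with the standard error of the limma fit over 12 lines, for MASCs (left) and ESCs (right). Red and blue points were called higher and lower, grey points were not called, and dotted lines mark a difference of 1; Ldhb, Hk2 and Pgk1 lie farthest to the right in both panels.

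Lactate dehydrogenase forms lactate from pyruvate, and its H subunit, Ldhb, favours the reverse direction. Ldhb (chr6:142438769-142456463, minus strand, mm9) was at 18.9, 3.69, 23.7 and 4.15 FPKM in SSCs and at 65.7, 83.7 and 163 FPKM in MASCs. The difference of 3.23 ± 0.52 was the largest of the 34, a 9.38-fold higher level without overlap (adjusted p = 0.0011, limma). SSC 1 and SSC 3, with more fibroblast markers, were the higher SSC lines, MEFs had 37.2 FPKM, and without the libraries high in these markers the difference was 4.17. Ldha, the M subunit, was at 105, 62.9, 199 and 124 FPKM in SSCs and at 296, 369 and 964 FPKM in MASCs, a difference of 1.85 ± 0.38 (adjusted p = 0.0046). The share of Ldhb in the summed FPKM was 8.35% in SSCs, 20.3% in MASCs, 0.474% in HSCs and 7.37% in MEFs. Relative to Ldha, Ldhb was higher in MASCs by 1.38 (log2 ratio) with overlap (exact permutation test, p = 0.057), and passed without SSC 1, SSC 3 or MASC 2, with differences of 1.52 to 1.72. Ldhc, the testis form, was at 10.2 FPKM in SSC 1 and at 3.59 FPKM or below in the 16 other samples.

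The E1 subunits of pyruvate dehydrogenase carry out its first reaction. Pdha1 (alpha subunit, chrX:156560151-156576268, minus strand, mm9) was at 34.3, 33.1, 32.7 and 39.3 FPKM in SSCs and at 80.7, 100.3 and 117 FPKM in MASCs. The lines within each group lay close together and the groups far apart, with a difference of 1.5 ± 0.10 and the lowest adjusted p of the members (4.8e-06, limma). Pdhb (beta subunit) was at 67.6, 86.6, 66.1 and 129 FPKM in SSCs and at 100.0, 135 and 179 FPKM in MASCs, a difference of 0.66 ± 0.22 (adjusted p = 0.045) below the minimum size.

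The 4 kinases that inactivate this complex differed in direction. Pdk3 (chrX:91009955-91077434, minus strand, mm9) was at 33.5, 44.0, 30.1 and 41.0 FPKM in SSCs and at 13.2, 14.8 and 16.4 FPKM in MASCs, a difference of −1.26 ± 0.12 without overlap (adjusted p = 4.3e-05, limma). Pdk2 was at 7.68, 6.41, 5.80 and 6.69 FPKM in SSCs and at 1.04, 1.56 and 2.53 FPKM in MASCs, a difference of −1.55 ± 0.17 (adjusted p = 0.00011). Pdk1 (chr2:71711281-71741915, plus strand), a target of HIF1 in other cells, was at 16.1, 15.1, 18.4 and 10.9 FPKM in SSCs and at 18.7, 26.9 and 35.1 FPKM in MASCs. Its difference of 0.78 ± 0.20 passed on p (adjusted p = 0.014) but not on size, although the groups did not overlap. Without the libraries high in fibroblast markers, the Pdk1 difference was 1.04 and was called. Pdk4 was at 1.27, 1.23, 1.45 and 0.962 FPKM in SSCs and at 1.34, 1.83 and 6.28 FPKM in MASCs (difference 0.54 ± 0.29, adjusted p = 0.20).

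Pdk3 was the most abundant kinase in all 4 SSC lines, both HSC cultures and MEFs, and Pdk1 in all 10 MASC, ESC and iPS lines. The log2 ratio of Pdk3 to Pdk1 was 1.25 ± 0.50 (SD, n = 4) in SSCs and −0.78 ± 0.35 (SD, n = 6) in MASCs, a difference of −2.03 without overlap (exact permutation test, two-sided p = 0.0095). It was −2.12 within Oct4-GFP, −2.68 within 129mix and −2.47 without the libraries high in fibroblast markers.

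**Figure D4:**
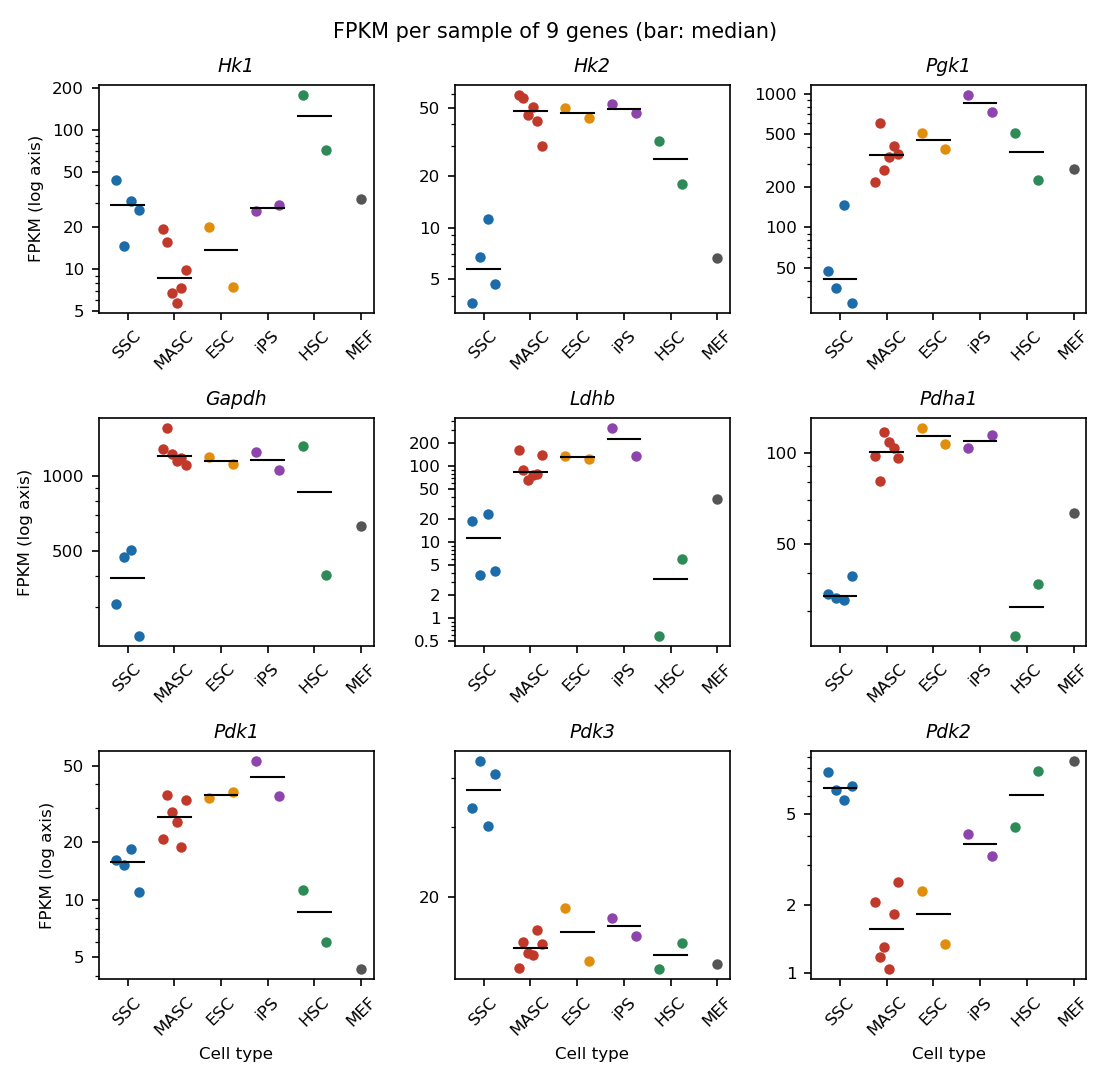
FPKM of 9 genes (logarithmic axes) in each sample, by cell type, with the median of groups of more than 1 sample as a bar. Hk2 and Pdha1 separate the MASC, ESC and iPS lines from the SSC lines, where Pdk3 is highest, and Ldhb is at 0.590 and 6.00 FPKM in the HSC cultures, the second of them within the SSC range.

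Lactate leaves or enters the cell through the monocarboxylate transporters Slc16a1 (MCT1) and Slc16a3 (MCT4). Slc16a1 was at 21.9, 62.2, 29.6 and 43.3 FPKM in SSCs and at 27.3, 31.4 and 37.5 FPKM in MASCs (difference −0.19 ± 0.25, adjusted p = 0.64). Slc16a3 was at 7.48, 8.35, 20.4 and 10.5 FPKM in SSCs and at 4.17, 11.6 and 80.5 FPKM in MASCs (difference 0.33 ± 0.75, adjusted p = 0.84). Slc16a1 was the higher of the pair in all SSC and ESC lines and in 5 of 6 MASC lines, with MASC 2 as the exception. Slc16a3 was higher in both iPS lines, both HSC cultures and MEFs, at 34.4, 34.2, 114, 9.51 and 35.9 FPKM beside 27.0, 25.9, 7.81, 8.24 and 8.46 FPKM of Slc16a1.

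Of the 14 isozyme ratios, 7 differed between MASCs and SSCs at the smallest p the design allows, namely Hk2/Hk1, Pfkm/Pfkl, Aldoc/Aldoa, Eno2/Eno1, Pdk3/Pdk1, Pgk2/Pgk1 and Ldhc/Ldha. Pgk2 was near 0 throughout, so its ratio follows Pgk1 alone. With transcripts summed per gene, the Pfkm/Pfkl groups overlapped and the difference was −1.88 (exact permutation test, p = 0.038). The Ldhc/Ldha difference of −1.85 was −1.22 to −1.66 and no longer passed with a pseudocount of 0.1 or 0.01 or with quantile normalization. All 7 kept their sign within both strains and without the libraries high in fibroblast markers. The ratios Slc2a3/Slc2a1 (0.73, p = 0.26), Pfkfb4/Pfkfb3 (−0.48, p = 0.46), Pgam2/Pgam1 (−0.46, p = 0.27), Eno3/Eno1 (−1.24, p = 0.057) and Slc16a3/Slc16a1 (0.53, p = 0.54) did not pass the exact permutation test. Slc2a3/Slc2a1 passed without SSC 2 (1.38, exact permutation p = 0.024), and Eno3/Eno1 passed without MASC 3 or SSC 3 (−1.40 and −1.58, exact permutation p = 0.032 and 0.048).

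SSC 3, the SSC line with most fibroblast markers, had the highest value of the SSC lines for 18 of the 34 genes and for 26.5% of all transcripts. Of the 11 genes called higher in MASCs, 8 were in MEFs above every SSC line, and 0 were above every MASC line. Of the others, Slc2a3 (1.21 FPKM in MEFs) was below the SSC range, and Hk2 (6.69 FPKM) and Pfkp (14.9 FPKM) were within it. The part of feeder cells in the SSC values was not tested.

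ESCs were compared with SSCs in the same fit, and the comparison shares its SSC lines with that of MASCs. Higher were 9 genes (Hk2, Pfkp, Gapdh, Pgk1, Pkm, Ldha, Ldhb, Pdk1 and Pdha1; 4.96% of all transcripts) and lower were 2 (Pdk2 and Pdk3; 8.75%). With the filter on low values, 11 and 3 of 33 members were called, beside 1875 and 3235 of 18757 transcripts. Hk2 was at 49.7 and 43.6 FPKM in the 2 ESC lines, a difference of 2.75 ± 0.37 from SSCs (adjusted p = 0.00069, limma). Ldhb was at 138 and 125 FPKM (difference 3.66 ± 0.69, adjusted p = 0.0046) and Pdha1 at 120 and 107 FPKM (difference 1.68 ± 0.13, adjusted p = 3.3e-05). Pdk1 was at 34.04 and 36.2 FPKM, above all SSC lines (difference 1.18 ± 0.26, adjusted p = 0.010). Pdk3 was at 18.7 and 13.8 FPKM (difference −1.15 ± 0.16, adjusted p = 0.00085), and Pdk2 at 2.31 and 1.34 FPKM (−1.45 ± 0.23, adjusted p = 0.0017). Aldoa, Eno1 and Pfkm missed the threshold at adjusted p of 0.0564, 0.0503 and 0.0523 (limma) with differences of 2.04, 2.16 and −1.63. Without ESC 1 or ESC 2, Ldha, Pfkp and Pdk1 lost their calls in either case. Without ESC 2, Pdk3 (−0.94) fell below the minimum size. Without the libraries high in fibroblast markers, which leaves 1 ESC line, Gapdh, Pkm, Ldha and Pdk1 missed the threshold. Their differences were then 1.76, 1.79, 2.41 and 1.43.

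Between ESCs and MASCs, no member was called in either direction by limma, and 1 had an unadjusted p under 0.05 (Pfkfb4). Over all transcripts, 0.0153% were called higher and 0.00306% lower, and 954 of 32661 had an unadjusted p under 0.05. The members' differences ranged from −0.55 to 0.56 with a median of 0.10. With 2 ESC lines, this does not show that the levels are equal.

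The iPS lines have no test here. Ldhb was at 318 and 135 FPKM, Pgk1 at 978 and 726, Hk2 at 52.2 and 46.5 and Pdk1 at 52.6 and 34.8. Hk1 was at 26.0 and 28.8 FPKM, inside the SSC range and above all MASC lines.

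HSCs offered a second somatic culture with replicates. Against SSCs, 9 genes were higher (Hk1, Hk2, Pfkp, Pfkfb4, Aldoa, Tpi1, Pgk1, Pkm and Ldha; 8.75% of all transcripts) and 2 were lower (Pdk3 and Slc16a1; 14.2%). With a filter of 1 FPKM in at least 2 samples, 10 and 3 of 33 members were called, beside 2925 and 4884 of 20119 transcripts. These counts depend on the libraries and the model. Hk1, Pfkp, Aldoa, Tpi1, Pgk1 and Pkm lost their calls without HSC 1. Over all libraries left out in turn, the difference was 1.38 to 2.67 for Hk1, 1.10 to 2.74 for Pfkp and 1.78 to 3.26 for Aldoa. With strain as a block, 2 were higher and 2 lower, beside 2308 and 3842 of all transcripts. Hk1, Hk2, Pfkp, Aldoa, Tpi1, Pgk1 and Pkm then lost their calls. HSCs share a strain only with SSC 3, so the differences in that fit rest on this 1 SSC line, which is high in fibroblast markers. Without SSC 1, SSC 3 and HSC 2 among the libraries high in fibroblast markers, the differences were 3.10 for Hk1, 3.30 for Pfkp, 4.15 for Aldoa and 4.20 for Ldha. The lone HSC culture is then assumed to vary like the other groups. Ldha was at 1643 and 651 FPKM, a difference of 3.19 ± 0.52 from SSCs (adjusted p = 0.00052, limma) that held without either culture. Slc16a1 fell by 2.05 ± 0.30 to 7.81 and 8.24 FPKM (adjusted p = 0.00022). The median difference of the members was 0.084, and −0.016 with quantile normalization.

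Against MASCs, in a comparison that shares the HSC cultures and the MASC lines with those above, 4 genes were higher in HSCs (Hk1, Pfkfb4, Eno2 and Pdk2; 9.64% of all transcripts) and 8 were lower (Slc2a3, Eno3, Ldhb, Pdk1, Pdk4, Pdha1, Pdhb and Slc16a1; 11.2%). With the filter on low values, 5 and 8 of 33 members were called, beside 3182 and 3891 of 20119 transcripts. The higher members were thus close to the share of all transcripts kept, and the lower members somewhat above it. Ldhb was at 0.590 and 6.00 FPKM in HSCs, a difference of −4.87 ± 0.73 (adjusted p = 0.00028, limma). Without HSC 1 or HSC 2 that difference still passed, at −3.81 to −5.94 over all libraries left out in turn. Pdha1 was at 24.9 and 36.9 FPKM (difference −1.69 ± 0.15, adjusted p = 4.0e-06) and Pdhb at 46.2 and 48.1 FPKM (−1.48 ± 0.25, adjusted p = 0.00071). Pdk1 was at 11.2 and 5.99 FPKM (−1.56 ± 0.28, adjusted p = 0.0011), Pdk4 at 0.0301 and 0.351 FPKM (−1.45 ± 0.34, adjusted p = 0.0059) and Pdk2 at 4.39 and 7.77 FPKM (1.40 ± 0.23, adjusted p = 0.00064). Hk1 was 10.5-fold higher (difference 3.39 ± 0.53, adjusted p = 0.00042), and Eno2, at 12.2 and 17.1 FPKM, differed by 2.25 ± 0.63 (adjusted p = 0.016). Eno3 was at 1.29 and 6.13 FPKM (−1.80 ± 0.35, adjusted p = 0.0019) and Slc16a1 differed by −1.86 ± 0.28 (adjusted p = 0.00033). The Slc2a3 difference of −2.04 ± 0.68 (adjusted p = 0.039) was lost without HSC 1 or HSC 2 or without MASC 1, 2 or 6, the Eno2 call without either HSC culture, and those of Eno3 and Pdk4 without HSC 1. Without the libraries high in fibroblast markers, Slc2a3 (adjusted p = 0.25) and Pdk1 (adjusted p = 0.051) were lost, and with transcripts summed per gene the Eno3 difference was −0.97, below the minimum size. With strain as a block, which links HSCs to the other lines only through SSC 3, 2 were higher and 4 lower. Over all transcripts, 2034 were then higher and 2163 lower. The calls of Hk1 (2.90, adjusted p = 0.054), Pdhb (−0.92, below the minimum size) and Slc16a1 (−1.47, adjusted p = 0.12, limma) were lost with those of Slc2a3, Eno2, Eno3 and Pdk4. HSC 2 had 540 FPKM of fibroblast markers and HSC 1 had 2.51. The 5 endothelial markers summed to 25.3 FPKM in HSC 2 and 42.4 FPKM in HSC 1, of which Pecam1 gave 19.2 and 42.3 FPKM. Cdh5, Tek, Kdr and Emcn were at 0.0641 FPKM or less in HSC 1 and at 0.126 to 3.45 FPKM in HSC 2. The part of other cells in these results was not tested.

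**Figure D5:**
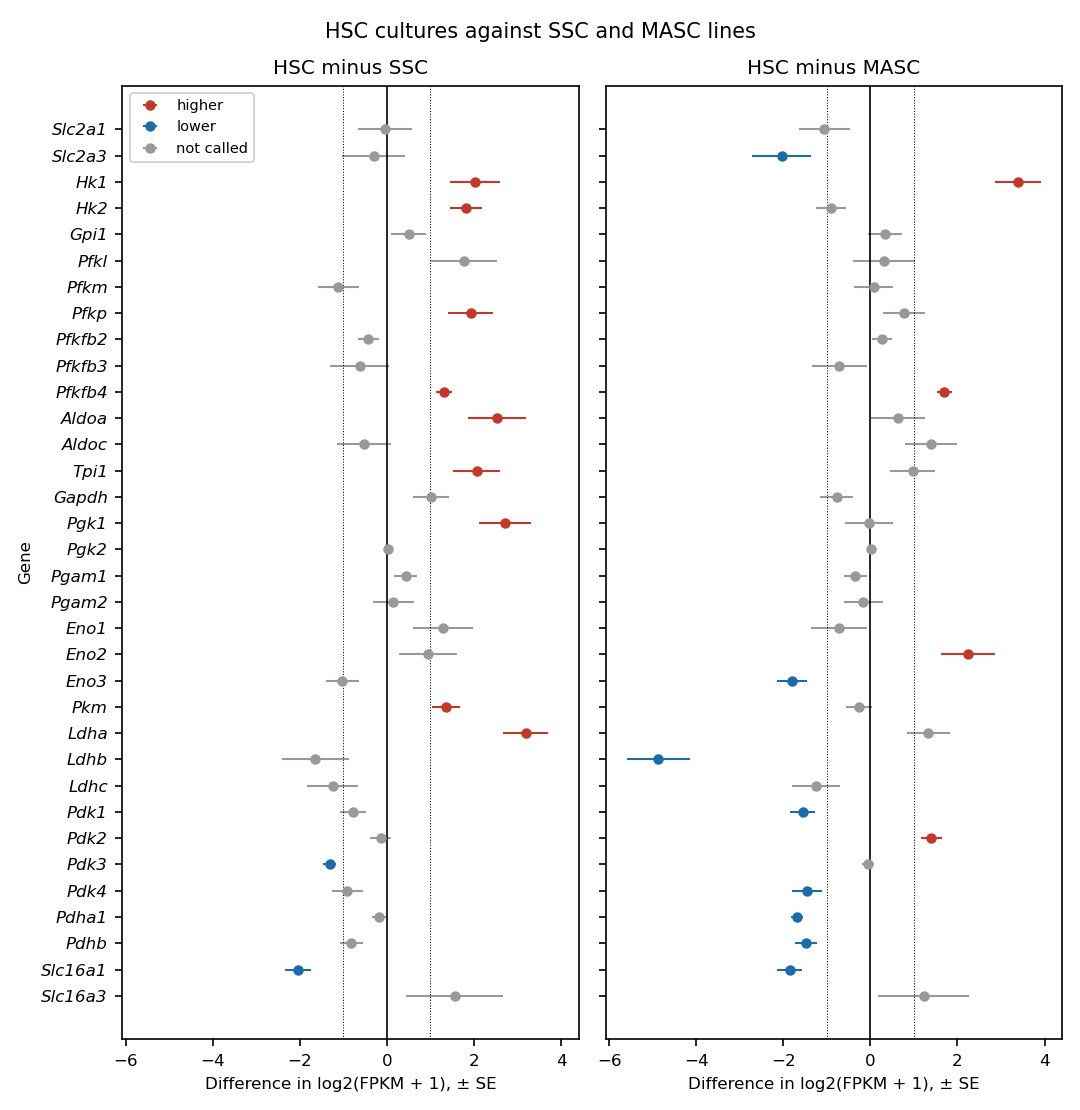
Differences in log2(FPKM + 1) of the 2 HSC cultures from the SSC lines (left) and the MASC lines (right), with the standard error of the limma fit over 17 samples. Colours are as for the differences from SSCs, and Ldhb at −4.87 and Hk1 at 3.39 are the extremes of the right panel.

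MEFs, with 1 sample, have no replicate check. Their levels of Ldha (468 FPKM), Pkm (706 FPKM) and Aldoa (686 FPKM) lay above every SSC line, and their Slc2a3 (1.21 FPKM) and Pdk1 (4.35 FPKM) below every SSC line. Eno2 (24.9 FPKM) and Pdk2 (8.57 FPKM) were higher in MEFs than in any other sample.

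Related genes outside the 34 did not move as a block. Of 32 other glycolytic isozymes and side-branch genes, 5 were higher and 5 lower in MASCs than in SSCs, and their median difference was −0.088. Over all transcripts, 6.04% were called higher and 9.6% lower. Of the 18757 transcripts kept by the filter on low values, 2106 were higher and 3307 lower. This list and those below were counted without that filter. The largest were Pgm1 (phosphoglucomutase; 0.755 to 2.83 FPKM in SSCs, 8.76 to 15.5 FPKM in MASCs; 2.30 ± 0.23, adjusted p = 6.8e-05, limma) and Eno1b. Aldoart1, a retrogene of Aldoa, differed by 1.29 at 0.855 to 3.56 FPKM in SSCs and 4.31 to 11.6 FPKM in MASCs. The values of Eno1b and Aldoart1 may not be independent of those of Eno1 and Aldoa. Pcx, which carboxylates pyruvate to oxaloacetate, was lower, at 3.24 to 7.61 FPKM in MASCs against 16.3 to 40.5 FPKM in SSCs (−2.33 ± 0.30, adjusted p = 0.00029). Pgm2l1 and Pgm2, of the phosphoglucomutase family, were lower, with differences of −2.22 and −1.49.

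Of 21 further pyruvate and lactate genes, 1 was higher and 7 were lower in MASCs, beside 6.04% and 9.6% of all transcripts. The higher gene was Emb (embigin, a partner protein of monocarboxylate transporters), at 6.48 to 14.4 FPKM in SSCs and 39.4 to 72.8 FPKM in MASCs (2.15 ± 0.22, adjusted p = 7.5e-05, limma). Mpc2, a subunit of the mitochondrial pyruvate carrier, was at 53.1 to 183 FPKM in SSCs and 9.62 to 16.6 FPKM in MASCs (−3.10 ± 0.32, adjusted p = 7.9e-05). Pdha2, the testis copy of Pdha1, was at 1.14 to 12.8 FPKM in SSCs and at 0.288 FPKM or less in MASCs (−2.28 ± 0.51, adjusted p = 0.0071). Pdp1, the phosphatase that reverses the Pdk kinases, was at 4.33 to 7.97 FPKM in SSCs and at 0.874 FPKM or less in MASCs (−2.23 ± 0.21, adjusted p = 4.0e-05).

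In the pentose phosphate pathway, which branches off at glucose 6-phosphate, 4 of 12 genes were higher and 1 was lower in MASCs. For this list and the next, the shares over all transcripts were 6.04% higher and 9.6% lower. Tkt, transketolase, was at 8.03 to 34.2 FPKM in SSCs and 143 to 210 FPKM in MASCs (3.17 ± 0.40, adjusted p = 0.00026, limma). Prps2 and Rpe were higher by 2.17 and 1.53, and Rpia, ribose 5-phosphate isomerase, was lower, at 5.39 to 7.90 FPKM against 38.0 to 80.5 FPKM (−2.89 ± 0.18, adjusted p = 4.0e-06). Of 22 hypoxia factors and responsive genes outside glycolysis, 1 was higher (Epas1, 2.52 ± 0.27, adjusted p = 9.8e-05) and 6 were lower, with a median difference of −0.96. Among the lower were Egln1 (−1.70), P4ha1 (−1.69) and Vhl (−1.39). Hif1a was at 13.8 to 19.2 FPKM in SSCs and 17.3 to 41.4 FPKM in MASCs, a difference of 0.90 ± 0.23 (adjusted p = 0.015) below the minimum size.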

How the data were processed

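RNA-seq of 17 cultures in 6 cell types was analysed from the FPKM tables that the authors deposited, 1 per sample. Per the labels and the study's methods, the authors aligned reads with TopHat2 2.0.11 to mm9 and made the FPKM values with Cufflinks (version not given in the sources used here), with upper-quartile and GC correction and without duplicate or multi-mapping reads. The coverage column the authors deposited (reads per base) was used for the precision only. The files hold no counts, so depth per sample is unknown and no counting interval was computed.

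Of 33262 rows, the 32661 RefSeq transcripts were kept. Differences are on the log2(FPKM + 1) scale, which understates the change of low genes. They were fitted with limma 3.58.1 (R 4.3.3) without a filter on low values, over the 12 SSC, MASC and ESC lines, or over all 17 samples for HSCs, with Benjamini-Hochberg adjustment over all transcripts. A gene was called at an adjusted p under 0.05 and a difference of at least 1. The isozyme ratios were compared by an exact two-sided permutation test over lines (210 assignments, scipy 1.17.1, Python 3.11.15), unadjusted. On data simulated for MASCs against SSCs over 32661 transcripts, the fit recovered 70 of 100 transcripts changed by 1.5 on the log2 scale and 93 of 100 changed by 3, with 1 false call. The simulated noise was normal and independent between lines, and the changed transcripts had a mean log2(FPKM + 1) above 3. Far fewer transcripts were changed than were called in the data. The recovery therefore does not cover low genes or libraries that differ as a whole.

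The members and the further gene lists were chosen with earlier results of these data known. Members were described per sample where they were called or where the leading isozyme differed between cell types, and from each further list at most the 3 called genes with the largest difference in each direction were named, plus Hif1a. Libraries other than MEFs with more than 400 FPKM of summed fibroblast markers were left out in an alternative added after seeing the data. The other alternatives changed the pseudocount, filter, scaling, moderation, transcripts per gene, samples in the fit, blocks and minimum difference.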

Additional observations from a re-analysis of the deposited data

Results flagged for a closer look

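Single samples stood apart from the rest of their group by Dixon's test in 14 of 96 tests, and chance gives about 1 in 20. MASC 2 was the high sample for 7 genes: Slc2a1 (491 FPKM, other MASC lines 103 to 150), Gpi1 (436, others 191 to 250), Pfkl (135, others 26.7 to 46.2), Aldoa (1683, others 520 to 656), Tpi1 (412, others 125 to 177), Pkm (1864, others 828 to 987) and Ldha (964, others 296 to 382). MASC 2 was the highest MASC line for 21 of the 34 genes and for 20.6% of all transcripts. In the same line the log2 ratios of Pfkp to Pfkl (−2.53), Pfkfb4 to Pfkfb3 (−1.34) and Ldhc to Ldha (−8.36) lay below those of the other MASC lines.

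Ldhc was at 10.2 FPKM in SSC 1 and at 0.683 to 1.05 in the other SSC lines. Pdk4 was at 6.28 FPKM in MASC 1 and at 1.34 to 2.46 in the other MASC lines, and the log2 ratio of Eno2 to Eno1 was −6.37 there against −8.41 to −7.78. The log2 ratio of Slc2a3 to Slc2a1 was 1.22 in SSC 2 and −1.52 to −1.11 in the other SSC lines.

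Slc2a1 was higher in MASCs than in SSCs among Oct4-GFP lines (log2 difference 2.12) and lower among 129mix lines (−0.64). Slc16a3 likewise differed by 1.85 and −0.88. The 129mix lines include 1 SSC line, and the difference between strains was not tested.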

How the results depend on the processing

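Counts of called genes (higher, then lower) were 11 and 5 for MASCs against SSCs, 9 and 2 for ESCs against SSCs, 9 and 2 for HSCs against SSCs and 4 and 8 for HSCs against MASCs. No direction reversed. Without each replicate in turn they ranged from 8 to 11 and 3 to 5, 6 to 11 and 1 to 4, 3 to 11 and 2 to 4, and 3 to 7 and 7 to 8, and the 7 isozyme ratios from 7 to 9. Over all transcripts, leaving out each replicate gave 1811 to 2012 higher and 2954 to 3232 lower for MASCs against SSCs. For MASCs against SSCs, the lower count was 3 with quantile normalization or median-of-ratios scaling, and 2 with strain as a block or without the libraries high in fibroblast markers. The lower counts over all transcripts were then 2427, 2669, 2969 and 3105. For ESCs against SSCs, 4 were higher with only the 2 groups fitted, beside 992 of all transcripts. The lower count was 5 with a pseudocount of 0.1, 1 with median-of-ratios scaling and 4 with no minimum difference. Over all transcripts, 3976, 2361 and 4495 were then lower. For HSCs against SSCs, 2 were higher with only the 2 groups fitted or with strain as a block, beside 1986 and 2308 of all transcripts. With a pseudocount of 0.1, 5 were lower, beside 6316 of all transcripts. For HSCs against MASCs, the strain block left 2 and 4, beside 2034 and 2163 of all transcripts. Asking for a log2 difference of at least 2 left 4 and 0, 4 and 0, 5 and 1, and 2 and 2. Over all transcripts that minimum left 565 and 697, 565 and 767, 1346 and 1659, and 1408 and 1244. ESCs against MASCs gave 0 and 0 under every alternative run. The cause of these shifts was not tested, apart from the fewer samples or stricter minimum where an alternative is built that way.

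Replicate numbers did not pair the samples: same-numbered MASC and SSC lines correlated at −0.23 to 0.18 in their deviations from the group means, and different-numbered ones at −0.32 to 0.34. A replicate block nonetheless added to the fit gave counts of 6 and 2, 4 and 3, 0 and 0 (ESCs against MASCs), 5 and 2, and 3 and 7. Over all transcripts, in the same order, it gave 1444 and 2387, 961 and 1643, 2 and 0, 2383 and 3870, and 2411 and 2688.

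The files give no depth, so counting error is unknown, and low genes such as Pfkfb3, Ldhc and Pdk4 are the least certain. Genes with near-identical copies (Gapdh, Pgk1, Ldha, Pgam1, Tpi1, Aldoa, Eno1) have uncertain levels, because multi-mapping reads were left out.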
